A study of Mus musculus with 11 samples.

Results

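The genes described here are 42 mouse genes of S phase, in which DNA is copied, and of mitosis, in which the copies are separated. They are a list of named genes, drawn up with earlier results of these data known. Of these, 10 act in or before S phase and 32 act from late S phase to the end of cell division, with the cyclin gene Ccna2 counted among the 32. All 42 were found among the 21957 genes in the files.

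The cells were primed OT1 cells, mouse CD8 T cells whose transgenic receptor recognises a peptide of ovalbumin, and the series design calls them memory T cells. Stimulated cells were kept for 2 h with beads that bind CD3 and CD28, the receptor and costimulatory signals of T cells. Unstimulated cells carry the time label T0, while the treatment protocol has them resting for 2 h, so the labels do not settle whether they were matched in time to the stimulated cells. Both groups were then given cycloheximide, an inhibitor of translation elongation, for 10 min. Coding-sequence reads were counted per gene in 6 RNA libraries, 3 stimulated and 3 unstimulated, and in 5 libraries of ribosome footprints (the mRNA fragments covered by a translating ribosome), 2 stimulated and 3 unstimulated. The stimulated footprint library of replicate 1 was not analysed here. The labels give no strain, sex, age or method of priming, and are silent on whether replicates came from different cultures or mice. The p-values below therefore speak of the spread between libraries, which may be technical. Gene positions are on GRCm38.

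Cells pass from G1 into S phase when the retinoblastoma proteins release E2F transcription factors, which switch on genes for nucleotide supply and for the replication fork. A later wave of transcription, driven by the MuvB complex together with B-Myb and FoxM1, supplies the cyclins, kinases and spindle proteins of mitosis. In resting cells the same MuvB core joins p130 and E2F4 in the DREAM complex, which represses these genes through a promoter element called the CHR (cell cycle genes homology region). Many mitotic promoters also hold CCAAT boxes, which bind NF-Y. T cells primed by antigen divide quickly, while a new signal through the T cell receptor starts early transcription long before any division.

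Promoter sequences are shown first, because they show features that the choice of genes did not use. The letters are RefSeq's for GRCm38.p6, 5′ to 3′ on the strand of the gene, running from 250 bases before to 50 bases after the start site. Capitals mark 3 kinds of element on either strand. The CHR element was searched as TTTGAA, and also as TTTAAA. The box bound by NF-Y was searched as CCAAT. The E2F element was searched in 4 forms. One was GGCGGGAA and another GGCGCGAA. A shorter form was GCGGGAA. The last form searched was TTGGCGC. The shorter form GCGGGAA lies within GGCGGGAA, TTTAAA is its own reverse complement, and a single stretch of overlapping matches was counted once. The mitotic genes Ccnb2, Cenpf and Top2a were chosen as examples with a CHR element close to the start site. The S phase genes E2f7, Rrm1 and Cdc25a were chosen as examples with an E2F element and no CHR element.
Ccnb2 promoter (chr9:70421505-70421804, minus strand): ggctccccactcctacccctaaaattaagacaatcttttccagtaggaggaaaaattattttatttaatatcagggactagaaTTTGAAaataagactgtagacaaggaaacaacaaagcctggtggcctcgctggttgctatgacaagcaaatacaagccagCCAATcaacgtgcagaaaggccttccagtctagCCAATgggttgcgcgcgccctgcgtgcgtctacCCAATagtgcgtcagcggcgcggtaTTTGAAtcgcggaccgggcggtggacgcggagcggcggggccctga
Cenpf promoter (chr1:189688037-189688336, minus strand): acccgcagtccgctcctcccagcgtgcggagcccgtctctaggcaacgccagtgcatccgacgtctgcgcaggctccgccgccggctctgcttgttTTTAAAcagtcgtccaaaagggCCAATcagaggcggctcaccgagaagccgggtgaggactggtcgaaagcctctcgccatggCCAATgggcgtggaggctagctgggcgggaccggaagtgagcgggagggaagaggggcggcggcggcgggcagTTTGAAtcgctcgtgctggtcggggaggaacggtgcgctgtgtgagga
Top2a promoter (chr11:99024140-99024439, minus strand): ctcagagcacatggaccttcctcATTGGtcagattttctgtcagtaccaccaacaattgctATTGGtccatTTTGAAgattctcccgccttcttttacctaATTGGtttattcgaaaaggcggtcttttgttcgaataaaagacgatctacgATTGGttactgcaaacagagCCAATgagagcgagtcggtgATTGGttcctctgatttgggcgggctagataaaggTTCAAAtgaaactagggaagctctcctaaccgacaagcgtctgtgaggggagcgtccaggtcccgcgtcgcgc
E2f7 promoter (chr10:110745189-110745488, plus strand): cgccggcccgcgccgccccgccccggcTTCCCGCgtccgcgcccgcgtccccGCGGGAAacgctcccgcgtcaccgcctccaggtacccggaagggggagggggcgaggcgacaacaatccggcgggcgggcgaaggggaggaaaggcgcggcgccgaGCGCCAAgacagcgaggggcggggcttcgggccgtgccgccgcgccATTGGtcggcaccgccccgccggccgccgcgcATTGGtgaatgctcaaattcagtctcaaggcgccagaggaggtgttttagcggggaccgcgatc
Rrm1 promoter (chr7:102441445-102441744, plus strand): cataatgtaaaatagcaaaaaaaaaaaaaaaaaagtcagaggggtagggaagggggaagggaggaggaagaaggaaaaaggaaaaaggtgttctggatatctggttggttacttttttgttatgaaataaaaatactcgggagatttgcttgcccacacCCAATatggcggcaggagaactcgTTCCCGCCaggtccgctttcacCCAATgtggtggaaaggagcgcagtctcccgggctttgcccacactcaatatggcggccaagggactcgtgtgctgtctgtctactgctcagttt
Cdc25a promoter (chr9:109875329-109875628, plus strand): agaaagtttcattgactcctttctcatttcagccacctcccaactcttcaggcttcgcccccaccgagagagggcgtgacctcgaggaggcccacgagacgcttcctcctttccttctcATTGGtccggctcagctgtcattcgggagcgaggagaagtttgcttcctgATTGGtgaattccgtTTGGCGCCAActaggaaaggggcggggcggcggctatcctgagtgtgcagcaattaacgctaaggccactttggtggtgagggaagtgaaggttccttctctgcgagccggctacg

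A promoter sequence was found for 35 of the 42 genes, 25 mitotic and 10 of S phase. None was used for Ccna2, Cdc25c, Kif20a, Foxm1, Aurkb, Smc4 and Tpx2. A CHR element stood within 50 bases of the start site in 18 of the 25 mitotic genes (72.0%) and in 3 of the 10 S phase genes (30.0%), against 8.28% of all 32851 promoters of the same length. In Ccnb2 it began 4 bases after the start site, in Cenpf 2 bases after it and in Top2a 23 bases before it. A CCAAT box was present in 21 of 25 mitotic genes (84.0%) and in 8 of 10 S phase genes (80.0%), against 37.4% of all promoters. Top2a held 6 of them and Ccnb2 held 3. The S phase genes with a CHR element were E2f2, E2f8 and Rrm2, and in E2f2 it stood in the promoter of the downstream start site.

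E2F elements had the opposite split between the gene groups. They were present in 6 of 10 S phase genes (60.0%) and in 5 of 25 mitotic genes, against 7.18% of all promoters. E2f7, itself an E2F family gene, held 3. An E2F match overlapped a CCAAT box in Ccnb1, E2f8 and Ect2. The count for a gene takes any of its listed promoters, and E2f2, Ect2 and Prc1 have 2 each. A match is a run of letters in this window, not a measured binding site.

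RNA libraries held 21658263 to 39346699 counts and footprint libraries 11136 to 23641. Levels are given as CPM, counts scaled by library size with the TMM method, and carry no correction for gene length, so they compare libraries and not genes. Lars2, Gm20594, Gm10801 and Gm10800, 4 genes in all, made up 12.8 to 25.0% of RNA counts in stimulated libraries, against 4.09 to 14.9% in unstimulated libraries. Olfactory and vomeronasal receptor genes, which T cells are not known to use, took 2740, 2017 and 681 CPM in stimulated libraries, against 299, 1874 and 404 CPM in unstimulated libraries. The 8 CD8 T cell markers summed to 2145 to 3390 CPM in stimulated libraries, against 2818 to 3151 CPM in unstimulated libraries, and none of the 8 passed the test. Of the separate marker lists of 6 other cell types, none summed to more than 24.8 CPM in any stimulated library or 19.3 CPM in any unstimulated library. Among these, the CD4 T cell list was at 18.9 to 24.8 CPM in stimulated libraries, against 11.8 to 12.2 CPM in unstimulated libraries, and the erythroid list at 2.14 to 4.10 CPM in stimulated libraries, against 4.58 to 5.59 CPM in unstimulated libraries. Cd40lg (log2 change 1.07, adjusted p = 0.00474) and the erythroid gene Alas2 (-1.53, adjusted p = 0.0256) passed the test, and no marker was at 0 in all libraries. The part of these differences in the results below was not tested.

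After 2 h of stimulation RNA was lower for many of the S phase and mitosis genes and higher for none that passed the test. By edgeR's quasi-likelihood test with Benjamini-Hochberg adjustment over 18886 genes, 20 of the 42 fell, none rose and 22 did not pass at an adjusted p under 0.05. The share that fell was 47.6%. Among all genes tested 4.68% fell and 3.58% rose (8.26% either way), and among those of at least 10 CPM 9.75% fell and 6.65% rose. The median log2 change of the 42 genes was -0.66, beside 0.39 over all genes tested and -0.09 over the 8492 tested genes of at least 10 CPM. The changes ran from -1.35 for Cdc25b to 0.05 for Cdc25a, and 41 of the 42 were negative, with Cdc25a negative too by RLE scaling (-0.18). In bulk RNA, fewer cells in a cycle phase and less RNA per cell cannot be told apart.

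In 39 of the 42 genes every stimulated library lay below every unstimulated library, against a background of 13.6% of all genes tested and 24.4% of those of at least 10 CPM. The exceptions were Cdc25a, Pcna and Cdc20. Stimulated replicate 3 was the highest of the stimulated libraries in scaled CPM in all 42 genes. Its TMM factor was 0.830, against 1.046 and 0.968 in stimulated replicates 1 and 2, and a low factor raises scaled values. The mitotic genes summed to 7297 scaled CPM in it, against 5326 and 5699 CPM in replicates 1 and 2. As plain shares of the library these sums were closer, at 0.606% against 0.557 and 0.552%. Stimulated replicate 3 was also the stimulated library with the lowest share of olfactory receptor counts (681 CPM) and of the 4 dominant genes (12.8%), and the part of these in its higher values was not tested. The median change was -0.67 over the 10 S phase genes and -0.66 over the 32 mitotic genes.

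**Figure D1:**
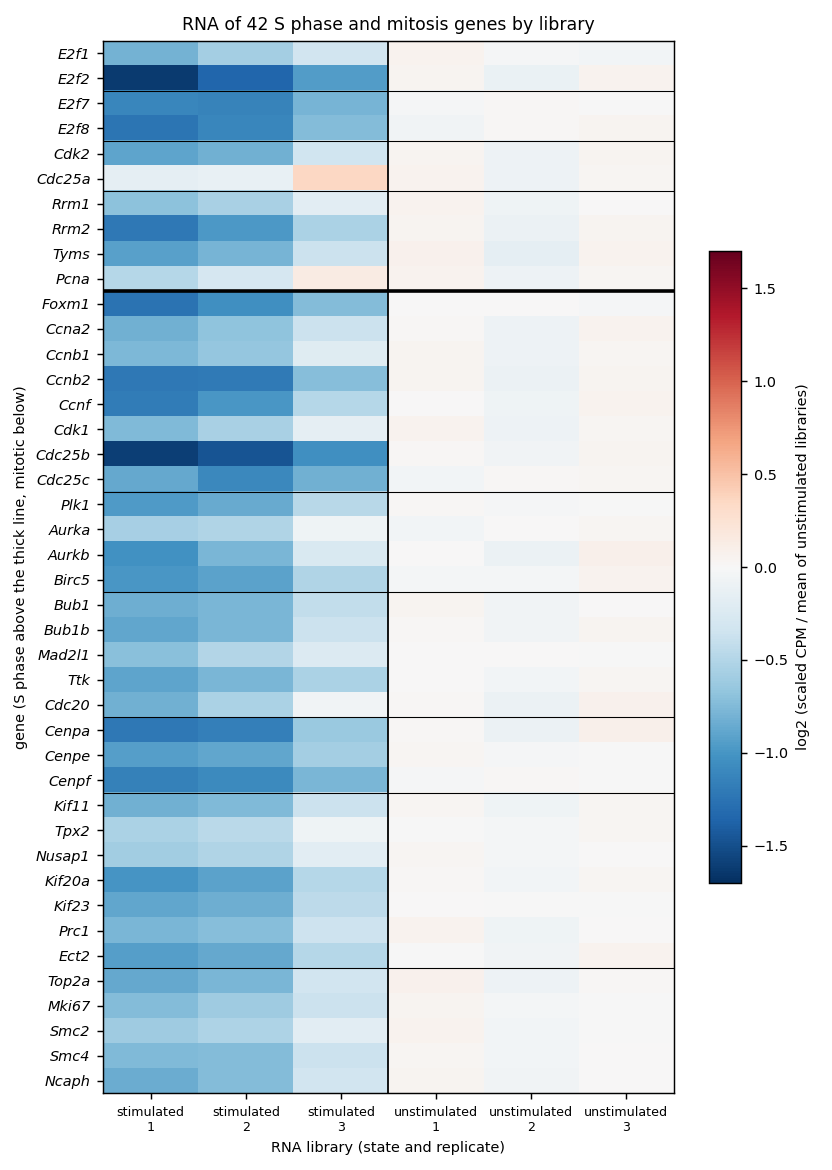
Each row is a gene and each column an RNA library, stimulated libraries at left and unstimulated at right. Colour gives the log2 ratio of scaled CPM to the mean of the unstimulated libraries, blue for lower, and thin lines part the functional groups. All stimulated libraries lie below all unstimulated ones for 39 of the 42 genes, least so in stimulated replicate 3, where Cdc25a and Pcna lie above the unstimulated mean.

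Both groups of E2F genes in the set fell, and the E2F genes outside it are given further below. E2f1 and E2f2 encode activators that open S phase, and E2f7 and E2f8 encode atypical E2F proteins that repress the same targets. E2f2 (chr4:136172274-136196057) had 45.1, 54.9 and 71.9 CPM in stimulated libraries, against 143, 129 and 146 CPM in unstimulated libraries (log2 change -1.28 ± 0.20 (SE), adjusted p = 0.00313). This was a 2.43-fold fall, and the groups did not overlap. E2f1 (chr2:154559400-154569892) had 10.5, 12.3 and 14.7 CPM in stimulated libraries, against 19.1, 18.1 and 17.7 CPM in unstimulated libraries (log2 change -0.55 ± 0.15 (SE), adjusted p = 0.0424). Its groups stood closer together without overlapping. Leaving out 1 library ended the call of E2f1, with an adjusted p of 0.238 without unstimulated replicate 1, 0.184 without unstimulated replicate 3, 0.181 without stimulated replicate 1 and 0.169 without stimulated replicate 2. The calls of E2f2, E2f7 and E2f8 held with each of the 6 libraries left out in turn.

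Both repressor genes of the set fell. E2f7 (chr10:110745439-110787384) had 33.3, 32.7 and 41.9 CPM in stimulated libraries, against 71.4, 73.3 and 71.5 CPM in unstimulated libraries (log2 change -1.0 ± 0.16 (SE), adjusted p = 0.0037). E2f8 (chr7:48866429-48882073) had 45.7, 50.1 and 65.2 CPM in stimulated libraries, against 104, 109.9 and 112 CPM in unstimulated libraries (log2 change -1.01 ± 0.18 (SE), adjusted p = 0.00599). In both, stimulated replicate 3 was highest of its group and still below every unstimulated library. E2f7 was lower by 2-fold and E2f8 by 2.02-fold.

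The remaining S phase genes moved less evenly. Rrm2 encodes the regulatory subunit of ribonucleotide reductase, which makes deoxynucleotides, and Rrm1 its large catalytic subunit. Rrm2 (chr12:24708254-24714146) had 150.1, 177 and 240.3 CPM in stimulated libraries, against 359, 324 and 359 CPM in unstimulated libraries (log2 change -0.88 ± 0.21 (SE), adjusted p = 0.0261). Its call was lost, with an adjusted p of 0.0562 without unstimulated replicate 1, 0.111 without unstimulated replicate 3, 0.113 without stimulated replicate 1 and 0.117 without stimulated replicate 2. Rrm1 (chr7:102441695-102469771) had 309, 340.2 and 443 CPM in stimulated libraries, against 520.5, 478 and 503 CPM in unstimulated libraries and did not pass (log2 change -0.46 ± 0.20 (SE), adjusted p = 0.222). For both subunits every stimulated library was below every unstimulated one.

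Tyms encodes thymidylate synthase and Cdk2 a kinase that helps to fire replication origins, and neither passed (log2 changes -0.67 ± 0.20, adjusted p = 0.0602, and -0.66 ± 0.19, adjusted p = 0.0515). Pcna, the sliding clamp of DNA polymerases, had 372, 425 and 572 CPM in stimulated libraries, against 539, 488 and 528 CPM in unstimulated libraries (log2 change -0.18 ± 0.21 (SE), adjusted p = 0.53). Its stimulated replicate 3 was the highest of all 6 libraries in TMM-scaled CPM. That library had the lowest TMM factor (0.830, against 0.968 to 1.075 in the others), which raises its scaled values. The Pcna change was -0.37 by library totals and -0.41 by RLE. Cdc25a encodes a phosphatase that activates Cdk2 at the start of S phase, and had 71.4, 73.2 and 102 CPM in stimulated libraries, against 82.7, 75.0 and 81.2 CPM in unstimulated libraries (log2 change 0.05 ± 0.18 (SE), adjusted p = 0.861). Its stimulated replicates 1 and 2 lay below all unstimulated libraries and replicate 3 above them. The sign of the Cdc25a change depended on scaling, at 0.05 by TMM, 0.14 with scaling on genes of at least 10 CPM, -0.08 without the 4 dominant genes, -0.14 by library totals and -0.18 by RLE.

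Genes for the engine of mitosis included the greatest fall of the 42. Cdc25b and Cdc25c encode phosphatases that activate Cdk1, and Foxm1 a transcription factor for G2 and mitosis genes. Cdc25b (chr2:131186436-131198511) had 30.6, 33.7 and 45.03 CPM in stimulated libraries, against 94.0, 89.0 and 96.0 CPM in unstimulated libraries (log2 change -1.35 ± 0.18 (SE), adjusted p = 0.00131). This 2.55-fold fall left the highest stimulated library far under the lowest unstimulated one. Cdc25c had 11.2, 9.57 and 11.6 CPM in stimulated libraries, against 19.7, 20.7 and 20.8 CPM in unstimulated libraries (log2 change -0.92 ± 0.13 (SE), adjusted p = 0.00205), with no overlap. Foxm1 (chr6:128362994-128375886) had 37.7, 43.7 and 54.1 CPM in stimulated libraries, against 90.8, 90.9 and 89.2 CPM in unstimulated libraries (log2 change -1.0 ± 0.18 (SE), adjusted p = 0.00555), again with no overlap between the groups.

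Of the cyclin genes in the mitotic group, Ccnb2, for a cyclin that binds and directs Cdk1, and Ccnf fell. Ccnb2 (chr9:70407689-70421554), whose promoter is printed above, had 55.4, 55.9 and 78.2 CPM in stimulated libraries, against 133, 121 and 133 CPM in unstimulated libraries (log2 change -1.03 ± 0.19 (SE), adjusted p = 0.00653). Ccnf encodes cyclin F, a subunit of an SCF ubiquitin ligase, and had 44.1, 50.6 and 71.7 CPM in stimulated libraries, against 101, 95.2 and 105 CPM in unstimulated libraries (log2 change -0.86 ± 0.20 (SE), adjusted p = 0.0215). Stimulated libraries were below unstimulated ones in both. The calls of Cdc25b, Cdc25c, Foxm1 and Ccnb2 held without any single library. That of Ccnf was lost, with an adjusted p of 0.0697 without unstimulated replicate 3, 0.0933 without stimulated replicate 1 and 0.0962 without stimulated replicate 2. Ccna2 (log2 change -0.61 ± 0.19, adjusted p = 0.077), Ccnb1 (-0.52 ± 0.18, adjusted p = 0.119) and Cdk1 itself (-0.46 ± 0.19, adjusted p = 0.197) did not pass.

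Among the kinases that run mitosis, Plk1 fell and the Aurora kinase genes did not pass. Plk1 (chr7:122159435-122169884), the Polo kinase of mitotic entry and spindle assembly, had 20.5, 22.1 and 28.9 CPM in stimulated libraries, against 40.7, 39.6 and 39.6 CPM in unstimulated libraries (log2 change -0.75 ± 0.16 (SE), adjusted p = 0.0146). Birc5 (chr11:117849237-117855743) encodes survivin, a partner of Aurora B in the chromosomal passenger complex, and had 55.4, 58.7 and 77.4 CPM in stimulated libraries, against 108, 108 and 115 CPM in unstimulated libraries (log2 change -0.79 ± 0.18 (SE), adjusted p = 0.0198). Neither gene's groups overlapped. Without 1 library the adjusted p of Plk1 was 0.0633 without unstimulated replicate 3, 0.0791 without stimulated replicate 1 and 0.103 without stimulated replicate 2. For Birc5 it was 0.132 without unstimulated replicate 3, 0.116 without stimulated replicate 1 and 0.152 without stimulated replicate 2. The gene for Aurora B itself, Aurkb, had a log2 change of -0.66 ± 0.21 (adjusted p = 0.0774), and Aurka, for the Aurora kinase of spindle poles, one of -0.37 ± 0.16 (adjusted p = 0.229).

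In the spindle checkpoint, which holds cells in metaphase until all chromosomes are attached, 2 of 5 genes fell. Bub1 (chr2:127800197-127831859), a checkpoint kinase at the kinetochore, had 86.5, 90.3 and 116 CPM in stimulated libraries, against 159.5, 148 and 154 CPM in unstimulated libraries (log2 change -0.66 ± 0.18 (SE), adjusted p = 0.0452). Ttk (chr9:83834651-83872390), which encodes the checkpoint kinase Mps1, had 28.2, 30.6 and 35.9 CPM in stimulated libraries, against 52.5, 50.6 and 53.6 CPM in unstimulated libraries (log2 change -0.73 ± 0.15 (SE), adjusted p = 0.0133). The groups did not overlap in either, and both calls were lost without 1 library. The adjusted p of Bub1 was 0.214 without unstimulated replicate 1, 0.266 without unstimulated replicate 3, 0.23 without stimulated replicate 1 and 0.261 without stimulated replicate 2. That of Ttk was 0.0598 without unstimulated replicate 1, 0.118 without unstimulated replicate 3, 0.101 without stimulated replicate 1 and 0.122 without stimulated replicate 2. Bub1b, for the checkpoint protein BubR1 (log2 change -0.66 ± 0.19, adjusted p = 0.054), and Mad2l1, for Mad2 (-0.47 ± 0.18, adjusted p = 0.151), did not pass. Nor did Cdc20, which encodes the activator of the anaphase-promoting complex that the checkpoint blocks (-0.44 ± 0.20, adjusted p = 0.253), and its groups overlapped.

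All 3 genes of the centromere and kinetochore fell. Cenpf (chr1:189640606-189688107), a large kinetochore protein gene whose promoter is printed above, had 87.2, 91.7 and 113 CPM in stimulated libraries, against 191, 197 and 193 CPM in unstimulated libraries (log2 change -0.99 ± 0.18 (SE), adjusted p = 0.00608). Cenpa (chr5:30666877-30674837), for the histone H3 variant that marks centromeres, had 58.8, 61.0 and 88.2 CPM in stimulated libraries, against 138, 127 and 144 CPM in unstimulated libraries (log2 change -0.98 ± 0.20 (SE), adjusted p = 0.0112). Cenpe (chr3:135212563-135273540), for a kinesin that moves chromosomes to the spindle equator, had 127, 131 and 163 CPM in stimulated libraries, against 248, 239 and 242 CPM in unstimulated libraries (log2 change -0.79 ± 0.18 (SE), adjusted p = 0.0205). In each of the 3, all stimulated libraries were lower than all unstimulated ones. The calls of Cenpf and Cenpa were lost only without stimulated replicate 2 (adjusted p = 0.0644 and 0.0683). That of Cenpe had an adjusted p of 0.102 without unstimulated replicate 1, 0.16 without unstimulated replicate 3, 0.127 without stimulated replicate 1 and 0.184 without stimulated replicate 2.

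Of 7 genes for the spindle and for cytokinesis, 3 fell. Kif20a encodes a kinesin of the central spindle and had 59.4, 63.2 and 84.5 CPM in stimulated libraries, against 120.5, 114 and 121 CPM in unstimulated libraries (log2 change -0.78 ± 0.18 (SE), adjusted p = 0.0224). Kif23 (chr9:61917277-61946810), the kinesin of the centralspindlin complex, had 85.1, 88.7 and 115 CPM in stimulated libraries, against 159, 156 and 157 CPM in unstimulated libraries (log2 change -0.71 ± 0.18 (SE), adjusted p = 0.0345). Ect2 (chr3:27097222-27154253), the exchange factor that activates RhoA for the contractile ring, had 64.5, 67.6 and 88.7 CPM in stimulated libraries, against 123, 119 and 129 CPM in unstimulated libraries (log2 change -0.75 ± 0.18 (SE), adjusted p = 0.0261). No stimulated library reached an unstimulated one in these genes.

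Each of those calls was lost without 1 library. The adjusted p of Kif20a was 0.0658 without unstimulated replicate 1, 0.125 without unstimulated replicate 3, 0.126 without stimulated replicate 1 and 0.16 without stimulated replicate 2. For Kif23 it was 0.142 without unstimulated replicate 1, 0.217 without unstimulated replicate 3, 0.194 without stimulated replicate 1 and 0.235 without stimulated replicate 2. For Ect2 it was 0.0812 without unstimulated replicate 1, 0.179 without unstimulated replicate 3, 0.145 without stimulated replicate 1 and 0.189 without stimulated replicate 2. The other 4 genes did not pass: Kif11, the kinesin that keeps spindle poles apart (log2 change -0.63 ± 0.20), Prc1, a central spindle bundler (-0.60 ± 0.18), Nusap1, a microtubule-associated protein (-0.41 ± 0.19), and Tpx2, the activator of Aurora A (-0.34 ± 0.19), with adjusted p-values from 0.0654 to 0.309. Kif11 had 266, 278 and 362 CPM in stimulated libraries, against 478, 442 and 479 CPM in unstimulated libraries, so even here the groups did not overlap.

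None of the 5 genes of chromosome structure passed, although their groups did not overlap. Top2a, for the topoisomerase that untangles sister chromatids, had 999, 1070 and 1454 CPM in stimulated libraries, against 1916, 1714 and 1847 CPM in unstimulated libraries (log2 change -0.64 ± 0.21 (SE), adjusted p = 0.0988). Mki67, for the proliferation marker Ki-67 that coats mitotic chromosomes, had 1267, 1389 and 1647 CPM in stimulated libraries, against 2182, 2061 and 2093 CPM in unstimulated libraries (log2 change -0.56 ± 0.20 (SE), adjusted p = 0.122). Smc4, a condensin subunit gene, had 598, 603 and 778 CPM in stimulated libraries, against 1032, 972 and 1015 CPM in unstimulated libraries (log2 change -0.61 ± 0.20 (SE), adjusted p = 0.0879). The other condensin genes had log2 changes of -0.42 ± 0.19 (Smc2, adjusted p = 0.242) and -0.62 ± 0.19 (Ncaph, adjusted p = 0.0695). Top2a and Mki67 were among the genes with the most counts.

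**Figure D2:**
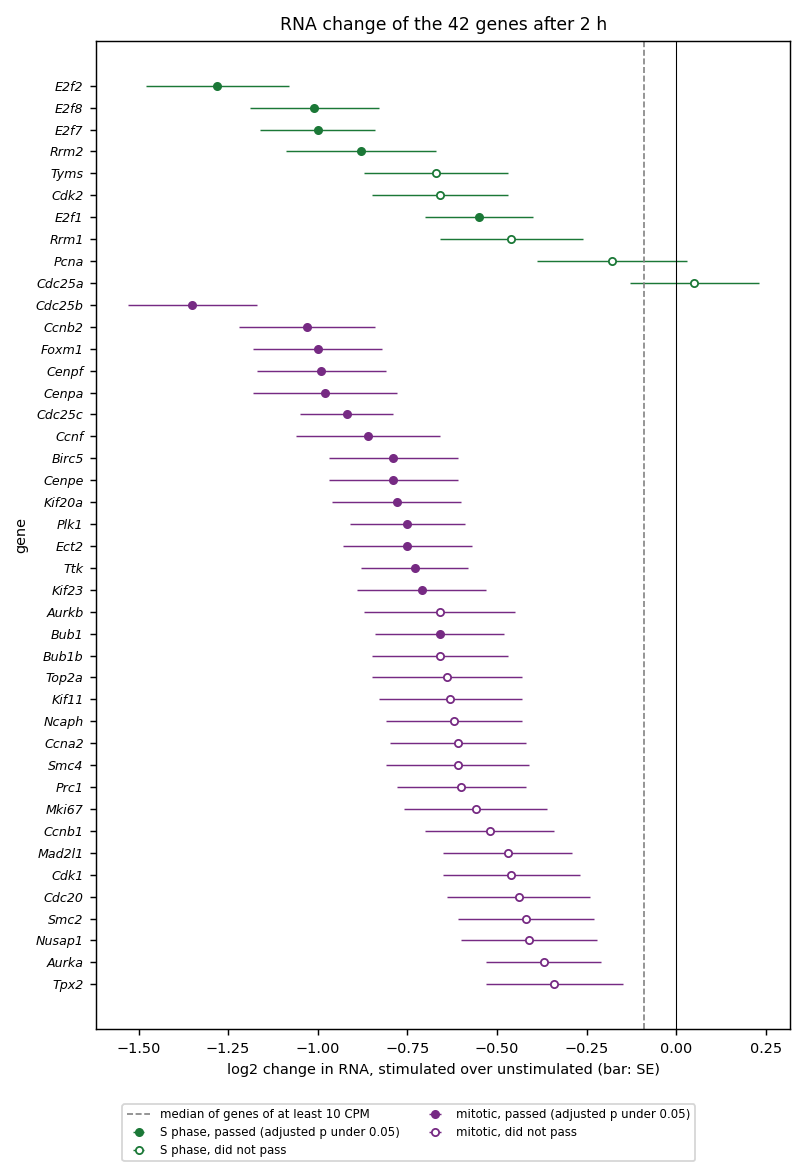
Points give each gene's log2 RNA change, stimulated over unstimulated, with its standard error as a bar, S phase genes above and mitotic genes below. Filled points passed at an adjusted p under 0.05, and the dashed line is the median of genes of at least 10 CPM (-0.09). The 20 filled points lie at or left of -0.55, and Cdc25a at 0.05 is the only gene right of 0, a sign that RLE scaling turns to -0.18.

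How many genes passed depended on what the libraries were scaled and fitted on. Under 5 scalings the median change of genes of at least 10 CPM was between -0.32 (RLE) and 0.00, and the median of the 42 genes between -0.88 (RLE) and -0.57. Rescaling shifts all genes together, so the gap of -0.57 between these medians was bound to be the same in each. When only the 8494 genes of at least 10 CPM were scaled and fitted, a restriction chosen after seeing the data, 41 genes passed as lower and Cdc25a passed as higher (0.14, adjusted p = 0.00735). That fit also called 36.4% of all its genes lower and 36.9% higher (73.3% either way).

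With each library left out in turn, the number of genes that passed as lower ranged from 7 without stimulated replicate 2 to 42 without unstimulated replicate 2, where Cdc25a RNA too passed as lower (-0.27, adjusted p = 0.0158). It was 12 without unstimulated replicate 1 (2.45% of all genes lower) and 9 without unstimulated replicate 3 (1.77%). Without stimulated replicate 1 it was 9 (2.3%), and without stimulated replicate 3 it was 41 (21.9%). The share of all genes called lower was 1.57% without stimulated replicate 2 and 32.1% without unstimulated replicate 2. The 7 genes whose call held in every such fit were Cdc25b, E2f2, Cdc25c, Foxm1, E2f7, E2f8 and Ccnb2.

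To set scaling aside, each gene's share of the summed RNA counts of the 42 genes was computed in every library. This share shows which genes gave up or gained ground within the set, as a description with no test. In 19 genes every stimulated library had a smaller share than every unstimulated one, in 10 a larger share, and in 13 the groups overlapped. The shares of a library sum to a fixed total, so smaller shares of some genes come with larger shares of others. Mki67, Top2a and Smc4 held 18.5, 16.0 and 8.81% of the sum in unstimulated libraries on average. No background over all genes was computed for these counts. Cdc25b had 0.470, 0.480 and 0.498% of the sum in stimulated libraries, against 0.800, 0.813 and 0.831% in unstimulated libraries. E2f2 had 0.694, 0.782 and 0.794% in stimulated libraries, against 1.22, 1.18 and 1.26% in unstimulated libraries. These were log2 changes of share of -0.75 and -0.69, and Ccnb2 (-0.43), E2f8 (-0.41), E2f7 (-0.40), Foxm1 (-0.40), Cenpf (-0.39) and Cenpa (-0.38) came next.

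Other genes had larger shares after stimulation. Cdc25a took 1.10, 1.04 and 1.13% of the sum in stimulated libraries, against 0.704, 0.685 and 0.703% in unstimulated libraries (log2 change of share 0.64). Pcna took 5.72, 6.06 and 6.33% in stimulated libraries, against 4.59, 4.45 and 4.57% in unstimulated libraries (0.41). Tpx2 (0.26), Aurka (0.23), Nusap1 (0.19) and Smc2 (0.18) followed. The RNA log2 changes of these genes were -0.34, -0.37, -0.41 and -0.42, none past the threshold. Their larger shares were therefore not rises in RNA level. Genes of 1 protein complex or family could differ: the share of Cdc25a was larger while that of Cdc25b was smaller, and Rrm1 (0.14) and Rrm2 (-0.28) differed in sign. Stimulated replicate 3, which stood apart in level, lay with the other stimulated libraries in the shares of Cdc25b, E2f2, Cdc25a and Pcna.

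**Figure D3:**
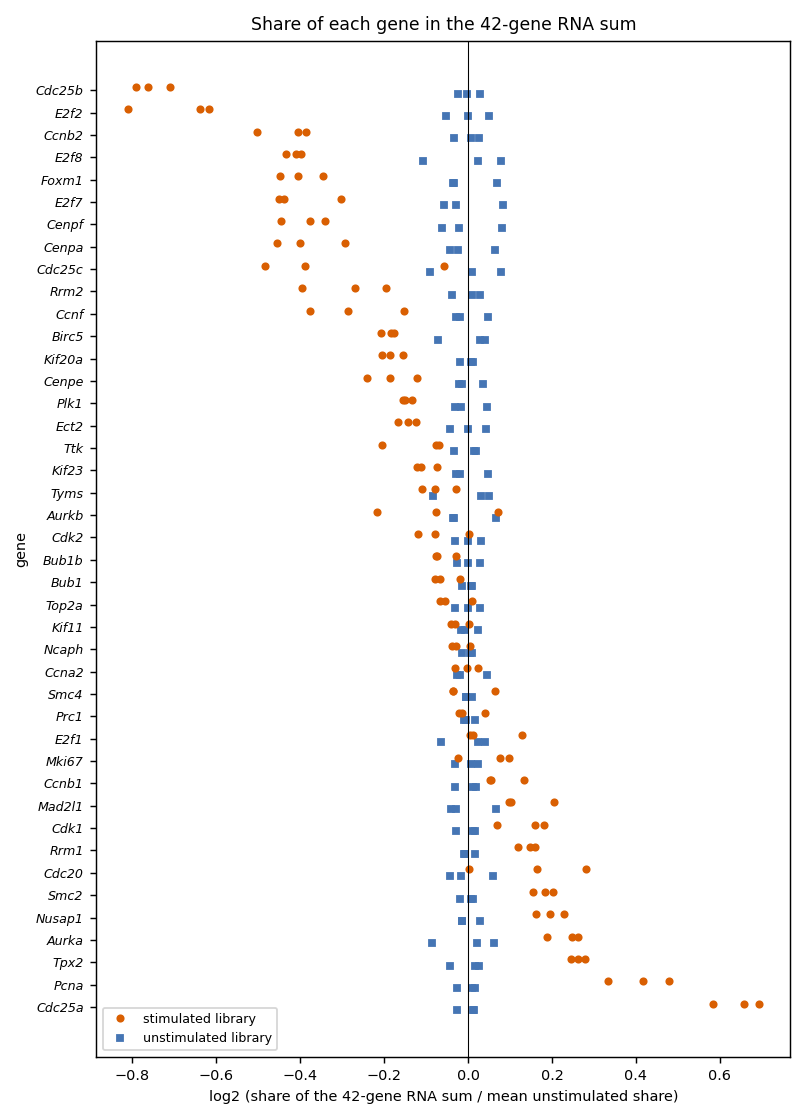
Each gene's share of the 42-gene RNA sum is plotted as the log2 ratio to its mean unstimulated share, 1 point per library (circles stimulated, squares unstimulated). Stimulated circles lie left of all squares for 19 genes, from Cdc25b and E2f2 at the top, and right of all squares for 10, ending with Pcna and Cdc25a. Shares of a library sum to a fixed total, so not all can move the same way.

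Summed over genes, the S phase group averaged 1413 ± 302 CPM in stimulated libraries and 2040 ± 96.7 CPM in unstimulated libraries (SD, n = 3 each), a log2 ratio of -0.53 or 1.44-fold lower. The mitotic group averaged 6107 ± 1047 CPM in stimulated libraries and 9380 ± 318 CPM in unstimulated libraries (SD, n = 3 each), a log2 ratio of -0.62 or 1.54-fold lower. As plain shares of each library, the mitotic genes held 0.557, 0.552 and 0.606% of RNA counts in stimulated libraries, against 1.04, 0.933 and 1.01% in unstimulated libraries. The S phase genes held 0.123, 0.127 and 0.145% in stimulated libraries, against 0.227, 0.199 and 0.223% in unstimulated libraries. No stimulated library overlapped an unstimulated one in either group of genes.

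Footprint sums rested on few counts. S phase genes had 52 and 23 footprints in stimulated replicates 2 and 3, against 25, 36 and 30 in unstimulated replicates 1 to 3. As shares of the library these were 0.249% (95% Clopper-Pearson interval 0.186 to 0.327%) and 0.0973% (0.0617 to 0.146%) in stimulated libraries, against 0.224, 0.247 and 0.197% in unstimulated libraries. The stimulated shares lay on either side of the unstimulated ones. In scaled CPM the sums were 2404 and 958 CPM in stimulated libraries, against 2601, 2377 and 1862 CPM in unstimulated libraries. Without stimulated replicate 2 the log2 ratio of the scaled sums was -1.18, beside -0.44 with both and 0.10 without stimulated replicate 3. All intervals cover counting error only.

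Mitotic genes had 107 and 144 footprints in stimulated replicates 2 and 3, against 64, 134 and 110 in unstimulated replicates 1 to 3. These were 0.513% (0.421 to 0.620%) and 0.609% (0.514 to 0.717%) of stimulated libraries, against 0.575% (0.443 to 0.733%), 0.920% (0.771 to 1.09%) and 0.722% (0.594 to 0.870%) of unstimulated libraries. Both stimulated shares were below those of unstimulated replicates 2 and 3, and that of unstimulated replicate 1 lay between them. In scaled CPM the sums did not overlap, at 4948 and 5995 CPM in stimulated libraries, against 6659, 8848 and 6826 CPM in unstimulated libraries. The log2 ratio of scaled sums was -0.44 for mitotic genes, and -0.16 with scaling on genes of at least 10 CPM.

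**Figure D4:**
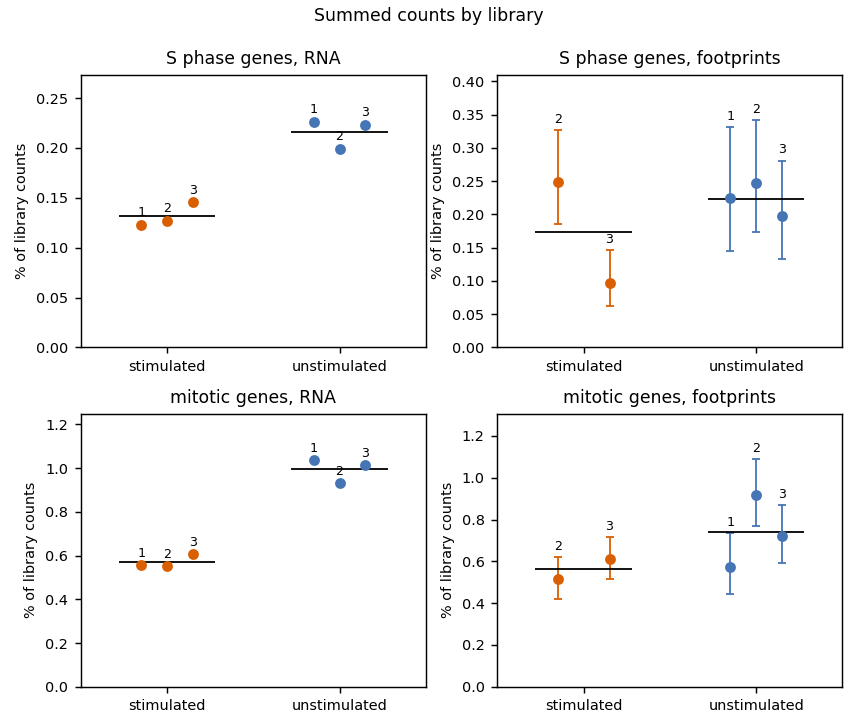
Summed counts of the S phase genes (upper row) and the mitotic genes (lower row) are given as a percentage of each library's counts, RNA at left and footprints at right, with replicate numbers beside the points, 95% Clopper-Pearson intervals as bars and group means as lines. In RNA all stimulated libraries lie below all unstimulated ones, at 0.552 to 0.606% against 0.933 to 1.04% for mitotic genes, while in footprints these shares overlap. In scaled CPM, which is not plotted, the mitotic footprint sums did not overlap (4948 and 5995 CPM stimulated, 6659 to 8848 CPM unstimulated).

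Single genes could be tested for footprints in only 5 cases, Top2a, Mki67, Smc2, Smc4 and Rrm1, because the others did not pass the filter on low counts. None of the 5 passed by edgeR over 256 genes, of which 3.52% were called lower and 5.86% higher (9.38% either way). At an unadjusted p under 0.05, 26 genes were lower (10.2%) and 28 higher (10.9%), Smc2 among the lower ones, and DESeq2 also called none of the genes described here. E2f1 and E2f7 had no footprint in any of the 5 libraries. With 3 counts as the upper limit of a 0, their footprint level could have been up to 144 or 127 CPM in stimulated replicates 2 and 3, and up to 269, 206 or 197 CPM in unstimulated replicates 1 to 3. A difference in their translation was not detectable at this depth. Among the genes too low to test, Ccnb2 had 8 and 6 footprints in stimulated replicates 2 and 3, against 3, 7 and 5 in unstimulated replicates 1 to 3. Rrm2 had 8 and 2 in the stimulated replicates, against 4, 11 and 6 in the unstimulated ones. Cdc25b had 2 and 3 in the stimulated replicates, against 2, 6 and 0 in the unstimulated ones, so the raw counts overlapped in all 3 genes. In scaled CPM, Ccnb2 and Cdc25b still overlapped and Rrm2 did not. Rrm2 footprints were at 369.9 and 83.3 CPM in stimulated libraries, against 416, 726 and 372.3 CPM in unstimulated libraries. No untested gene had more than 11 footprints in any library.

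Smc2, a condensin subunit gene, had the largest difference of the 5. It had 4 and 5 footprints in stimulated replicates 2 and 3, against 9, 9 and 15 in unstimulated replicates 1 to 3, although the stimulated libraries held more footprints in all. The log2 change was -2.01 ± 0.80 (SE), and its edgeR test gave an adjusted p of 0.0958. Its translational efficiency, the change in footprints beyond the change in RNA in 1 model over all 11 libraries, had a log2 change of -1.75 ± 0.52 (adjusted p = 0.0609). Neither passed the threshold. Smc4, its partner in condensin, had 12 and 18 footprints in stimulated replicates, against 2, 7 and 16 in unstimulated replicates (log2 change 0.15 ± 0.59, adjusted p = 0.916; efficiency 0.57 ± 0.51, adjusted p = 0.594).

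Top2a had 17 and 28 footprints in stimulated replicates, against 11, 31 and 25 in unstimulated replicates (log2 change -0.71 ± 0.40, adjusted p = 0.293). Mki67 had 12 and 22 in stimulated replicates, against 5, 13 and 8 in unstimulated replicates (0.22 ± 0.56, adjusted p = 0.851). Rrm1 had 33 and 5 in stimulated replicates, against 11, 14 and 16 in unstimulated replicates (-0.24 ± 0.50, adjusted p = 0.816). The groups overlapped in all 3, and the stimulated replicates of Rrm1 stood on opposite sides of the unstimulated ones. Efficiency changes were -0.23 ± 0.30 for Top2a, 0.64 ± 0.45 for Mki67 and 0.06 ± 0.48 for Rrm1, with adjusted p-values of 0.717, 0.470 and 0.958. Over the 255 genes tested for efficiency, 1.57% were called lower and 1.57% higher (3.14% either way). At an unadjusted p under 0.05, 28 genes were lower (11%) and 26 higher (10.2%).

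Set beside the promoters shown above, the 23 genes with a CHR element anywhere in the window had a median RNA change of -0.73, and the 12 without one a median of -0.58, as a description with no test. Of these, 13 of the 23 and 4 of the 12 fell, in a set of which 47.6% fell. Among all genes tested 4.68% fell, and among those of at least 10 CPM 9.75% fell. The same shares are the background for the other elements below. The ranges overlapped: Cdc25b, with the lowest change of all, had no CHR element in its window, and Aurka, with 2, had -0.37. The 11 genes with an E2F element had a median of -0.62 and the 24 without one a median of -0.66, and 4 of the 11 and 13 of the 24 fell. The 29 genes with a CCAAT box had a median of -0.66 and the 6 without one a median of -0.58, and 15 of the 29 and 2 of the 6 fell.

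Other genes of the same pathways, taken from lists of known members, were counted in the same way. Of 52 further mitotic genes 25 fell (48.1%) and none rose, with a median of -0.65, beside 4.68% lower among all genes tested. The GTPase regulator genes Iqgap3 (-0.98, adjusted p = 0.00475) and Racgap1 (-0.91, adjusted p = 0.0136), the centrosome kinase gene Nek2 (-0.98, adjusted p = 0.00547) and Fbxo5 (-0.92, adjusted p = 0.0163), for the inhibitor Emi1 of the anaphase-promoting complex, changed most. Iqgap3 and Nek2 held without any single library. Leaving out unstimulated replicate 3, stimulated replicate 1 or stimulated replicate 2 ended the calls of Fbxo5 (adjusted p = 0.0623, 0.062 and 0.118) and Racgap1 (adjusted p = 0.0809, 0.0785 and 0.0975). The count of the list ranged from 2 without stimulated replicate 2 (1.57% of all genes lower) to 51 without unstimulated replicate 2 (32.1%).

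Of 43 further genes for replication and nucleotide supply 11 fell (25.6%) and none rose, with a median of -0.55. Among all genes tested 4.68% fell, and among those of at least 10 CPM 9.75% fell. Dtl, for a subunit of the ligase that destroys the licensing factor Cdt1 (-1.05, adjusted p = 0.00662), Brca1, for a DNA repair protein (-1.0, adjusted p = 0.00854), and Cdc6, for an origin licensing factor (-0.98, adjusted p = 0.00915), were lost without stimulated replicate 2 (0.0508, 0.0679 and 0.0673). Tk1, for thymidine kinase (-0.98, adjusted p = 0.0155), was lost without stimulated replicate 1 (0.0524). The count ranged from 2 without stimulated replicate 2 (1.57% of all genes lower) to 42 without unstimulated replicate 2 (32.1%).

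Among 16 regulators of these programmes (retinoblastoma, E2F and MuvB genes) 2 fell (12.5%) and 1 rose, with a median of -0.34. Of all genes of at least 10 CPM 9.75% fell and 6.65% rose, so these shares were near the background. Mybl2, for B-Myb, fell (-0.67, adjusted p = 0.0484), as did Rbl2, for p130 (-0.64, adjusted p = 0.0425). Leaving out unstimulated replicate 1 ended both calls (adjusted p = 0.0841 and 0.205), as did leaving out unstimulated replicate 3 (0.191 and 0.259), stimulated replicate 1 (0.216 for each) and stimulated replicate 2 (0.173 and 0.269). E2f5, for an E2F of the repressor class, rose (16.9 ± 2.61 CPM in stimulated libraries and 9.78 ± 0.343 CPM in unstimulated libraries, SD, n = 3 each, log2 change 0.78 ± 0.15, adjusted p = 0.0073 by edgeR). Its call ended when unstimulated replicate 3 (adjusted p = 0.137), stimulated replicate 1 (0.0835) or stimulated replicate 2 (0.199) was left out. E2f3 (-0.13, adjusted p = 0.592), E2f4 (0.15, adjusted p = 0.583) and E2f6 (0.13, adjusted p = 0.603) did not pass by edgeR. The count that fell was 14 without unstimulated replicate 2, 12 without stimulated replicate 3 and 0 in the other 4 such fits. The share of all genes called lower was 32.1% without unstimulated replicate 2, 21.9% without stimulated replicate 3 and 1.57 to 2.45% in the other 4.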

How the data were processed

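Reads of total RNA and of ribosome-protected RNA were aligned with STAR 2.5 to GRCm38 (mm10), per the submitters' processing notes, and the authors deposited whole-number counts per gene over coding sequences. The counting tool, annotation, read filters and strand handling are not given in the sources used here. Of 21957 gene IDs, 21838 matched a symbol. Levels and tests were computed with edgeR 4.0.16 in R 4.3.3: TMM scaling, genes kept at a minimum count of 10 and total of 15, quasi-likelihood F tests (two-sided, prior count 2), Benjamini-Hochberg adjustment over all genes tested, threshold 0.05. RNA (6 libraries) and footprints (5 libraries, 11136 to 23641 counts) were fitted apart. Efficiency was the interaction of assay and stimulation over 11 libraries. Summed counts got Clopper-Pearson 95% intervals and no test. Every gene of the set that passed, and the 6 with the most RNA counts, are given by library. Up to 4 per pathway list that passed are named, with the other E2F genes of the regulator list. Members and lists were chosen with earlier results of these data known. Alternatives included other scalings, filters, DESeq2 1.42.0, a replicate block and leaving out each library. The tests were also run on simulated counts with the same spread for every gene of an assay. Those counts lacked the library differences in the 4 dominant genes and in olfactory receptor counts. They therefore cannot show how the tests behave on these libraries.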

Additional observations from a re-analysis of the deposited data

How the results depend on the processing

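The number of genes with lower RNA was 20 (4.68% of all genes lower), and 27 by RLE scaling (7.22%). It was 24 without the 4 dominant genes in scaling (6.07%) and 24 with no filter (4.7%). With olfactory counts as a covariate it was 21 (5.69%), a fit in which E2f1 RNA missed the threshold (adjusted p = 0.0682 by edgeR). It was 41 by library totals (22.3% of all genes lower), 40 with 1 higher when scaled on genes of at least 10 CPM (15.5%), 40 by DESeq2 (23.2%) and 8 at an adjusted p of 0.01 (1.59%). In counts thinned to footprint depth it was 1 of the 3 that could be tested, beside 7 of all 125 genes tested (5.6%). Fits chosen after seeing the data gave 41 with 1 higher on genes of at least 10 CPM, and 41 (30% of all genes) in the 3 libraries with the fewest olfactory counts, where the lone stimulated library was assumed to vary like the others. Leaving out 1 library gave 7 to 42. Replicate numbers were not taken as pairs, because the labels do not say that a number marks a shared animal, culture or day. Same-numbered RNA libraries had correlations of -0.41, 0.31 and 0.63 over genes of at least 10 CPM. Not every library correlated best with its own number. The replicate block gave 24 lower in RNA (6.18% of all genes lower) and -0.13 for Smc4 footprints.

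Cdc25a RNA changed sign by RLE (-0.18), library totals (-0.14), without the 4 genes (-0.08), with no filter (-0.11), by DESeq2 (-0.28) and in the 3 libraries (-0.13), and ranged from -0.27 to 0.04 with 1 library left out. Rrm1 footprints were 0.04 when scaled on genes of at least 10 CPM and 0.04 with no filter. Top2a efficiency was 0.13 by totals, 0.09 on genes of at least 10 CPM, 0.12 with no filter and 0.31 by DESeq2. With 1 library left out, footprint changes ranged from -2.18 to 0.60 for Rrm1, -0.17 to 0.59 for Mki67 and -0.22 to 0.80 for Smc4, Rrm1 efficiency from -1.91 to 0.91 and Top2a efficiency from -0.58 to 0.04. None of these footprint and efficiency values passed the test, while Cdc25a RNA passed as lower without unstimulated replicate 2 (-0.27, adjusted p = 0.0158 by edgeR). The cause of these changes was not tested.

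The S phase RNA sum had a log2 ratio of -0.76 by RLE and -0.84 to -0.55 with 1 library left out. The mitotic RNA sum had -0.84 by RLE, -0.80 by totals and -0.91 to -0.63 with 1 library left out. In footprints the S phase sum ranged from -1.18 to 0.10 with 1 library left out, and the mitotic sum was -0.16 when scaled on genes of at least 10 CPM. Footprint depth limited single-gene tests to 5 of the 42 genes.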
